A study of Mus musculus with 4 samples.

Results

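The cytosolic ribosomal protein genes encode the protein part of the ribosome outside mitochondria. They were taken from the deposited array values by gene symbol: array features with a single symbol beginning with Rpl or Rps and a digit, or Rplp0, Rplp1, Rplp2 or Rpsa, without the S6 kinases and without symbols marked -ps or -rs. Where a gene had several features, the one with the highest mean over all arrays was used. This gave 45 of the 30142 genes with a single symbol. The 45 held 33 standard ribosomal proteins (18 of the large 60S subunit and 15 of the small 40S subunit), 6 paralogues, 4 retrocopies or pseudogenes, and 2 genes named after ribosomal proteins that do not encode one. A further 53 features listed one of these symbols among several and were not assigned to a gene. No feature carried the symbol of Rpl5, Rplp1 or Rplp2 alone, so these were not analysed here.

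RNA of whole lungs was measured in male C57BL mice that had inhaled mainstream cigarette smoke or clean air for 1 h per day on 5 days per week, starting at the age of 10 weeks. The 4 groups were 4 weeks of smoke (14 weeks old at the end, 4 mice), 4 weeks of clean air (14 weeks old, 5 mice), 2 weeks of smoke (12 weeks old, 5 mice) and 2 weeks of clean air (12 weeks old, 5 mice). The lungs of a group were mixed and run on 1 array, so each group was 1 pool and the spread between mice was not seen. All values below are log2 of the RMA signal, in which the distributions of the arrays had been made alike, so a difference is relative to the other genes and not to the number of cells. A gene's signal depends on its own probes, and levels of different genes are therefore not set against each other.

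A ribosome joins messenger RNA to the tRNAs in its small subunit and links amino acids in its large subunit, and its many proteins are made in matched amounts. In vertebrates their messenger RNAs begin with a terminal oligopyrimidine (TOP) tract, a run of C and T bases through which mTOR and the RNA-binding protein Larp1 control translation, so that much of their regulation does not change messenger RNA levels. Ribosomal protein messenger RNAs are among the most abundant in growing and protein-secreting cells, and the lung holds both secretory epithelium and resident macrophages.

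The start sites are shown because the TOP tract is the element these genes share. RefSeq promoter sequences of build GRCm38.p6, reaching from 250 bases before to 50 bases after the annotated start, were matched to 37 of the 45 members and to 28 of the 33 standard proteins. A tract was counted where a C followed by 4 C or T bases lay within 10 bases of the start on the sense strand. It was present in 15 of the 28 standard proteins (53.6%), against 28.8% of 27025 genes and 29.3% of 17491 protein-coding genes. The sequence CCGGAAG, searched on both strands of the 300 bases, is a core that ETS-family factors such as GABP bind. It occurred in 14 of the 28 (50%), against 9.93% of all genes and 12.9% of protein-coding genes. GGGCGG, the core bound by Sp1, occurred in 53.6%, against 38.2% of all and 49.2% of protein-coding genes, and TATAAA in 14.3%, against 15.7% and 14.8%. The 6 windows below reach from 30 bases before to 10 bases after the start of the 3 standard proteins with the lowest and the 3 with the highest smoke effect over both durations that had a promoter sequence. The effects of Rpl31, Rpl41, Rpl27 and Rpl7a were read from features with another chromosome's identifier. At their own loci the last 3 had effects of 0.18, 0.14 and 0.12, and Rpsa and Rps26 then stood above Rpl27 and Rpl7a. Capitals mark the tract.
Rpl31 (chr1:39367821-39367860, plus strand): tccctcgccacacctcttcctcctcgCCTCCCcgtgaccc
Rpl11 (chr4:136053384-136053423, minus strand): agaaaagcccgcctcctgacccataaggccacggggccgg
Rps28 (chr17:33824553-33824592, minus strand): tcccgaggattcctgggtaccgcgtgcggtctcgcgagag
Rpl41 (chr10:128549159-128549198, minus strand): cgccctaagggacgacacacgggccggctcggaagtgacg
Rpl27 (chr11:101442215-101442254, plus strand): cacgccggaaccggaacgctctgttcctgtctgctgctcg
Rpl7a (chr2:26910777-26910816, plus strand): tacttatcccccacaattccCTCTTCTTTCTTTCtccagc
A tract lay near the annotated start of 1 of the 3 with the lowest effects (Rpl31) and of 1 of the 3 with the highest (Rpl7a). An annotated start can lie away from the start used in lung, and a window without a match says only that these letters are not in it.

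No member differed by 1.5-fold or more between smoke and clean air, and few genes of any kind did. Ribosomal proteins without a feature named for them alone lie outside this statement. Of the 45 members, 0 differed by 1.5-fold or more at 4 weeks, where 4.04% of the 18086 genes tested did, and 0 at 2 weeks, where 3.04% did. Among 45 genes, counts of 0 lie near such small shares and are not read as a trait of the members. Genes counted as tested had a mean signal above the 40th percentile (a log2 signal of 5.82), which 42 members exceeded; Rpl10l, Rpl39l and Rpl3l lay below it. Between the 2 control pools, which differ in age and pool but not in exposure, 0 members were 1.5-fold apart, against 4.09% of genes. The range over all 4 pools was under 1.5-fold in 44 of 45 members, the exception being Rpl10l, and in 87.2% of the genes tested. The differences of single members at 4 weeks ran from -0.32 (Rpl31) to 0.55 (Rpl41), with a standard deviation over the 45 genes of 0.167, against 0.289 over all genes tested. At 2 weeks they ran from -0.34 (Rpl31) to 0.27 (Rpl39l), with a standard deviation of 0.139 against 0.256.

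**Figure D1:**
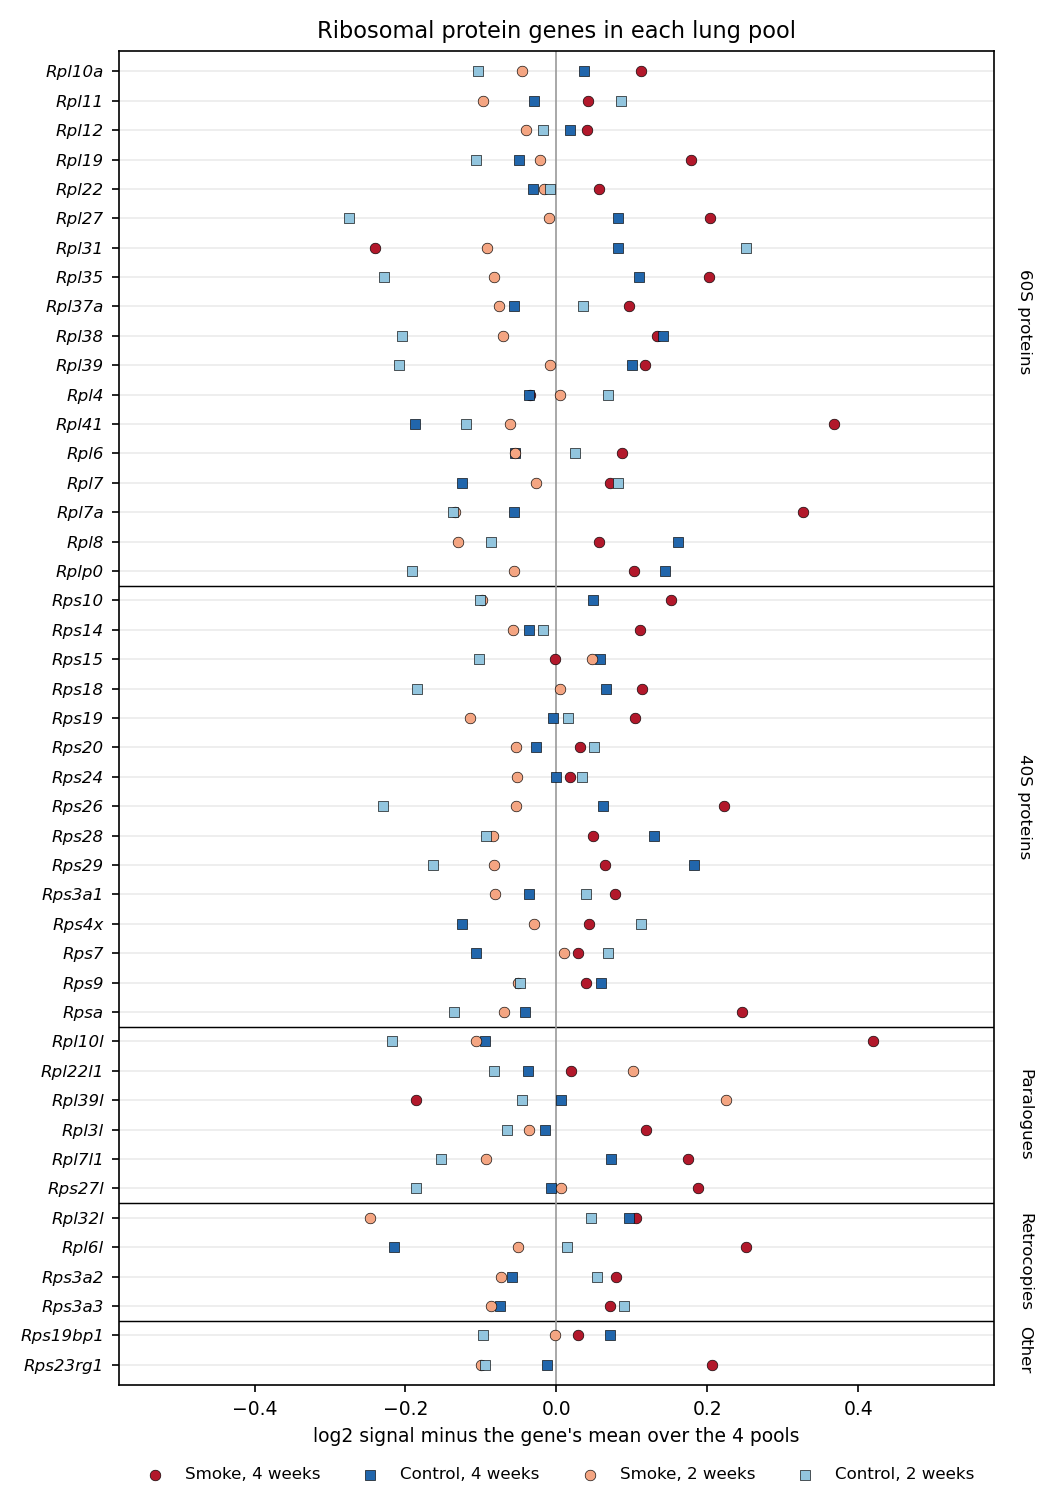
Log2 signal of each of the 45 members in each lung pool, as the difference from that gene's own mean over the 4 pools (x axis), with 1 point per pool and the genes grouped by role (y axis). Most points lie within 0.3 of the mean, and the pool of 4 weeks of smoke holds the highest point of 26 genes.

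No p-value is attached to a difference between 2 pools, because each group had 1 array. A single smoke effect, averaged over the 2 durations, was fitted per gene with limma. Its p-values could not use a spread within groups, since no group had a second pool. They set the effect against 2 parts combined. The smaller was the gene's own change between the durations (1 residual degree of freedom). The larger was a variance estimated over all genes tested (5.38 prior degrees of freedom). Standard errors of members with little change were therefore set mainly by the other genes, and part of that spread may be technical. Of the 42 members tested, 0 passed an adjusted p of 0.05 (Benjamini-Hochberg over all genes), against 1.47% of genes, and 1 had an unadjusted p under 0.05, against 11.6%. Among 42 genes, 0 passing lies near the share over all genes. In simulated data of this comparison, the smoke effect over both durations, the same fit recovered 37.5% of genes changed 1.5-fold and 96.9% of those changed 2-fold. These shares hold for that simulation alone. Recovery of genes whose smoke difference is not the same at both durations was not tested.

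More members were higher than lower in smoke at 4 weeks, by small amounts, while at 2 weeks the members were evenly split. The difference between the durations was not tested. At 4 weeks 35 of 45 members were higher in smoke, against 46.5% of all genes tested, with a median difference of 0.10 (1.07-fold) against -0.02 for all genes. Among the 42 above the floor, 33 were higher, and 34 and 36 were under centring of the array medians and cyclic loess. At 2 weeks 23 of 45 were higher in smoke, against 51.3% of genes, with a median of 0.00 against 0.01. At 1.2-fold or more, 5 members were higher at 4 weeks (12.2% of genes) and 1 was lower (11.2%), while at 2 weeks 2 were higher (9.04%) and 2 lower (8.11%). The 5 higher at 4 weeks were Rpl41, Rpl10l, Rpl6l, Rpl7a and Rpsa. Of these, Rpl10l lay below the floor and Rpl6l is a retrocopy or pseudogene. Rpl41 and Rpl7a were read from features of other chromosomes, and their own-locus features gave 0.23 and 0.22, below 1.2-fold. The median effect over both durations was 0.04 by limma. It was -0.035 when the pool of 4 weeks of smoke was left out together with the duration term, which the remaining 3 arrays cannot carry with a residual.

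**Figure D2:**
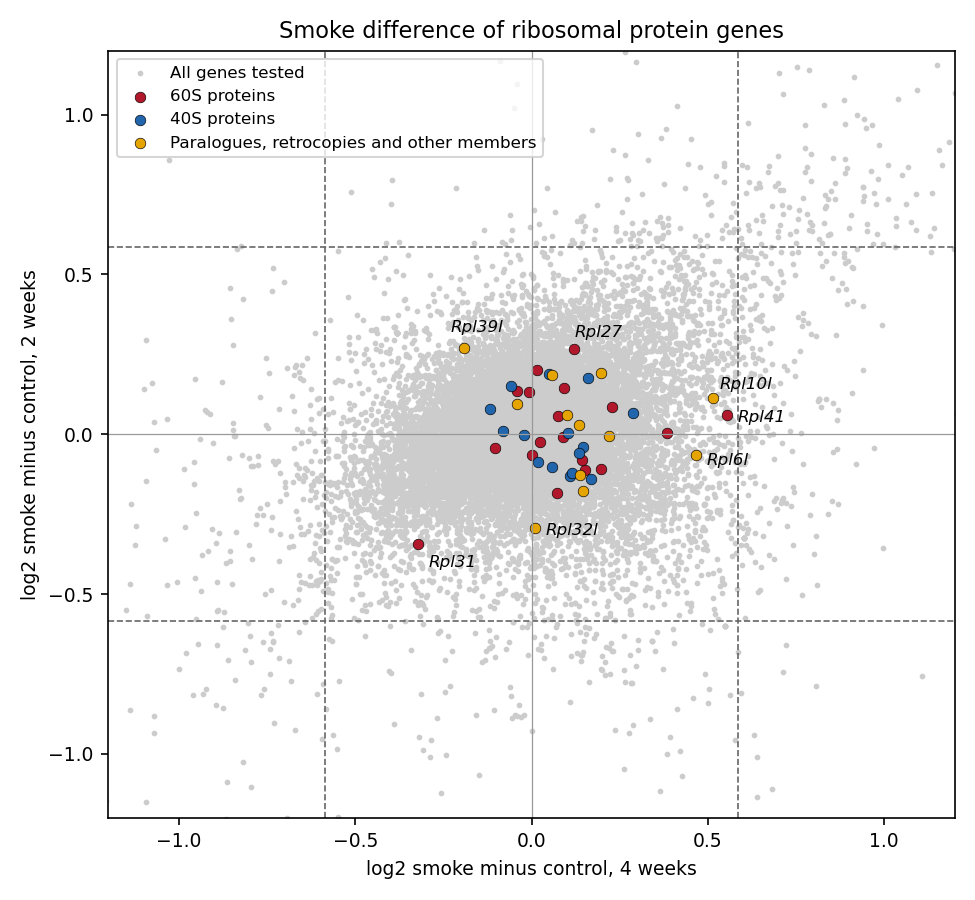
Log2 smoke minus control at 4 weeks (x axis) against the same at 2 weeks (y axis), with 1 point per gene; coloured points are members and grey points all genes tested, of which some lie outside the axes. No member crosses the dashed lines at 1.5-fold, and 35 of 45 lie to the right of 0.

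Most members had their highest signal in the same pool. The pool of 4 weeks of smoke held the highest signal of 26 of the 45 members (57.8%), where it held that of 29.5% of all genes tested. The 4-week control pool was highest for 8 members, the 2-week smoke pool for 2 and the 2-week control pool for 9. At the other end, the 2-week control pool was lowest for 21 members and the 2-week smoke pool for 15, against 7 for the 4-week control pool and 2 for the pool of 4 weeks of smoke. Over all genes tested these pools were lowest for 30.4%, 17.9%, 19.5% and 32.2%, in the same order. Within smoke, 40 of 45 members were higher at 4 than at 2 weeks, against 50.4% of genes, with a median of 0.16, and 10 of them by 1.2-fold or more, against 11.5% of genes. By 1.2-fold or more 1 member was lower, against 11.7% of genes, and 0 members were 1.5-fold apart, against 3.15%. Within clean air, 27 of 45 were higher at 4 than at 2 weeks, against 52.1% of genes, with a median of 0.05; 7 were higher by 1.2-fold or more, against 12.4% of genes, and 0 lower, against 11%. These comparisons share pools with each other and are not separate evidence.

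**Figure D3:**
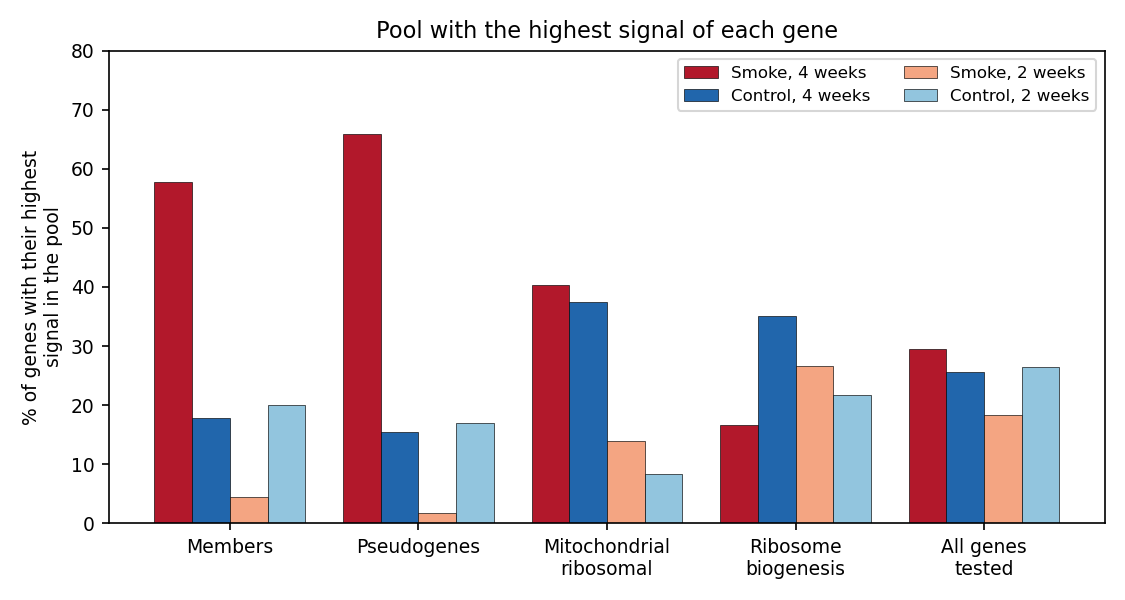
Percentage of genes (y axis) whose highest signal of the 4 pools fell in each pool (bars), for the members, ribosomal protein pseudogenes, mitochondrial ribosomal proteins, ribosome biogenesis genes and all genes tested (x axis). Among members the pool of 4 weeks of smoke reaches 57.8%, against 29.5% of all genes tested.

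Cell type markers differed between the same pools. Their sums add linear signal, so the brightest markers of a list weigh most and a sum can hide markers that ran the other way. Summed signal of 8 of 10 alveolar macrophage markers found was 54599 in 4-week smoke against 17707 in 4-week control, and 37466 in 2-week smoke against 15949 in 2-week control. By limma, 6 of the 8 passed the adjusted threshold, 5 of them higher (Marco, Cd68, Itgax, Atp6v0d2 and Mrc1) and Fabp1 lower. The 6 of 7 markers of dividing cells found summed to 4402 in 4-week smoke and 2767 in 4-week control, and to 3902 in 2-week smoke and 3126 in 2-week control. By limma 2 of these 6 passed, both higher, Mki67 among them. The 5 neutrophil markers summed to 1817 in 4-week smoke and 4649 in 4-week control, and to 2389 in 2-week smoke and 2481 in 2-week control. For 7 of 8 T and NK cell markers the sums were 1352 in 4-week smoke and 1158 in 4-week control, and 1161 in 2-week smoke and 933 in 2-week control. Within this list Cd8a and Nkg7 were lower in smoke at 4 weeks (-0.27 and -0.30). Other lists summed lower in smoke at both durations or at one. The 3 endothelial markers summed to 159352 in 4-week smoke and 201382 in 4-week control, and to 169280 in 2-week smoke and 191556 in 2-week control, with Cldn5 lower at an adjusted p of 0.023 by limma. For 5 of 6 B cell markers the sums were 2516 in 4-week smoke and 3191 in 4-week control, and 3881 in 2-week smoke and 3857 in 2-week control. The 7 of 8 cardiac muscle markers found summed to 9491 in 4-week smoke and 16916 in 4-week control, and to 10526 in 2-week smoke and 12753 in 2-week control. Taken singly, 7 of the 7 were lower in smoke at 4 weeks and 6 at 2 weeks, where 1 was higher by 1.04. The largest difference of a cardiac marker between the control pools was 2.24. Hopx, of alveolar type 1 cells, differed by -0.54 at 4 weeks. The part of these cell types in the ribosomal protein values was not tested. In such bulk samples fewer cells of a type cannot be told apart from less RNA per cell. The tissue's own markers were high in every pool, with Sftpc of alveolar type 2 cells at 18.97 in 4-week smoke, 18.87 in 4-week control, 18.87 in 2-week smoke and 18.85 in 2-week control.

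Among the 18 proteins of the 60S subunit, 14 were higher in smoke at 4 weeks (median 0.08), against 46.5% of all genes tested. At 2 weeks 9 were higher (median -0.00), against 51.3%. The gene with the lowest smoke effect of all members was Rpl31, a protein at the rim of the exit tunnel through which the new chain leaves. Its signal was 8.38 in 4-week smoke, 8.70 in 4-week control, 8.53 in 2-week smoke and 8.87 in 2-week control. Both smoke pools lay below both control pools. The difference was -0.32 at 4 weeks and -0.34 at 2 weeks, and the effect over both was -0.33 ± 0.101 (SE), with an adjusted p of 0.251 by limma. Over the alternative settings that adjusted p ran from 0.051, when protein-coding genes alone were fitted, to 1.00, when the duration term was dropped together with the pool of 4 weeks of smoke or that of 2 weeks of clean air. The Rpl31 gene lies on chromosome 1, but its feature carries a chromosome 7 identifier, and no second feature was named for it.

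Rpl41, the shortest protein of the ribosome, sits at the interface of the subunits and had the highest effect. It measured 15.75 in 4-week smoke, 15.20 in 4-week control, 15.32 in 2-week smoke and 15.26 in 2-week control. The pool of 4 weeks of smoke stood above the others, which lay close together. The difference was 0.55 at 4 weeks and 0.06 at 2 weeks, for an effect of 0.31 ± 0.140 (SE) with an adjusted p of 0.486 by limma. This feature carries a chromosome 14 identifier, whereas the gene lies on chromosome 10. The feature on chromosome 10 read 8.89 in 4-week smoke, 8.65 in 4-week control, 8.65 in 2-week smoke and 8.53 in 2-week control, a difference of 0.23 at 4 weeks and 0.12 at 2 weeks.

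Rpl7a, another RNA-binding protein of the 60S subunit, had the same shape. Its signal was 12.84 in 4-week smoke, 12.45 in 4-week control, 12.38 in 2-week smoke and 12.37 in 2-week control. The difference of 0.38 at 4 weeks and 0.00 at 2 weeks came from a chromosome 9 feature, and the feature on the gene's own chromosome 2 gave 0.22 and 0.02. In both features the pool of 4 weeks of smoke was the highest.

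Rpl27 of the 60S subunit was highest in 4-week smoke and lowest in 2-week control. It read 12.16 in 4-week smoke, 12.04 in 4-week control, 11.95 in 2-week smoke and 11.68 in 2-week control. The control pools differed by 0.36, more than the 0.12 of smoke at 4 weeks or the 0.27 of smoke at 2 weeks. The feature on the gene's own chromosome 11 gave 0.16 at 4 weeks, 0.12 at 2 weeks and 0.17 between the controls.

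Rpl8, which lies near the peptidyl transferase centre, had 11.99 in 4-week smoke, 12.10 in 4-week control, 11.81 in 2-week smoke and 11.85 in 2-week control. The 4-week pools were both above the 2-week pools, and smoke was lower by small amounts at both durations (-0.10 and -0.04). Rplp0, which carries the acidic proteins of the stalk that recruits elongation factors, read 12.09 in 4-week smoke, 12.13 in 4-week control, 11.93 in 2-week smoke and 11.79 in 2-week control. The control pools were 0.34 apart. In smoke it differed by -0.04 at 4 weeks and 0.14 at 2 weeks, so neither smoke difference exceeded the one between unexposed pools.

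Rpl11, which with Rpl5 and 5S RNA can bind Mdm2 and release p53 when ribosome assembly fails, measured 8.21 in 4-week smoke, 8.14 in 4-week control, 8.07 in 2-week smoke and 8.25 in 2-week control. Smoke was higher at 4 weeks by 0.07 and lower at 2 weeks (-0.18), and the pools overlapped. Rpl4, whose loop narrows the exit tunnel, stayed between 16.75 and 16.86 in all pools, with differences of 0.00 at 4 weeks and -0.06 at 2 weeks. Rpl39, a small protein of the tunnel wall, was at 10.92 in 4-week smoke, 10.90 in 4-week control, 10.79 in 2-week smoke and 10.59 in 2-week control. Its control pools lay 0.31 apart, above both smoke differences of 0.02 and 0.20.

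The remaining 60S proteins stayed below 1.2-fold for smoke at both durations. Rpl6, Rpl7 and Rpl22 had smoke differences of 0.14, 0.20 and 0.09 at 4 weeks and of -0.08, -0.11 and -0.01 at 2 weeks. Rpl19, Rpl37a, Rpl10a, Rpl35 and Rpl12 were higher at 4 weeks by 0.23, 0.15, 0.08, 0.09 and 0.02. At 2 weeks the same genes differed by 0.09, -0.11, 0.06, 0.15 and -0.02, and the control pools of Rpl35 were 0.34 apart. Rpl38, known for its part in the translation of Hox messenger RNAs in mouse embryos, differed by -0.01 at 4 weeks and 0.13 at 2 weeks while the control pools were 0.34 apart. These last 6 were named after their values were seen, as were the other genes outside the naming rule given with the processing.

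Among the 15 proteins of the 40S subunit, 11 were higher in smoke at 4 weeks (median 0.10), against 46.5% of all genes tested. At 2 weeks 7 were higher (median -0.00), against 51.3%. Rpsa, also known as the laminin receptor precursor, had the highest effect of the 15. It read 11.34 in 4-week smoke, 11.05 in 4-week control, 11.02 in 2-week smoke and 10.96 in 2-week control. The pool of 4 weeks of smoke stood above the other pools, and the smoke difference was 0.29 at 4 weeks and 0.07 at 2 weeks. The effect over both durations was 0.18 ± 0.110 (SE), with an adjusted p of 0.654 by limma.

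Rps26, at the channel where messenger RNA leaves the subunit, came next in the subunit by effect. Its signal was 14.01 in 4-week smoke, 13.85 in 4-week control, 13.74 in 2-week smoke and 13.56 in 2-week control. Smoke differed by 0.16 at 4 weeks and 0.18 at 2 weeks, and the control pools by 0.29. A second feature with its symbol, on chromosome 8, gave 0.22 and 0.34 for smoke and 0.50 for the controls.

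Other 40S proteins varied in both directions. Rps24 and Rps19, which are mutated in human Diamond-Blackfan anaemia, differed by 0.02 and 0.11 at 4 weeks and by -0.09 and -0.13 at 2 weeks. Rps3a1, of the platform of the subunit, measured 14.88 in 4-week smoke, 14.77 in 4-week control, 14.72 in 2-week smoke and 14.85 in 2-week control, so smoke was the higher pool at 4 weeks and the lower at 2 weeks. Rps28 had -0.08 and 0.01, and Rps29 had -0.12 and 0.08 for 4 and 2 weeks. Rps29 differed by 0.35 between the control pools. Rps4x, the X-linked form of this protein, had the most negative control difference of the members, -0.24, with smoke differences of 0.17 at 4 weeks and -0.14 at 2 weeks.

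By sign alone, 16 members were higher in smoke at both durations, against 27.2% of genes tested, and 3 were lower at both (Rpl31, Rpl8 and Rps9), against 29.3%. The commonest pattern, in 19 members, was higher at 4 weeks and lower at 2 weeks, which 19.3% of genes showed. The reverse was seen in 7 members and in 24.2% of genes. No member was 1.5-fold apart in opposite directions. The change of a smoke difference with duration has no test in this design.

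The 6 paralogues replace or resemble a standard protein in some tissues, and 3 of them lay below the floor. Of the 6, 5 were higher in smoke at 4 weeks (median 0.12), against 46.5% of all genes tested. At 2 weeks 6 were (median 0.15), against 51.3%. Rps27l, a paralogue of Rps27 that p53 induces, had similar small differences in all comparisons. It read 9.36 in 4-week smoke, 9.16 in 4-week control, 9.18 in 2-week smoke and 8.98 in 2-week control. Smoke exceeded control by 0.20 at 4 weeks and 0.19 at 2 weeks, and the control pools differed by 0.18. The effect was 0.19 ± 0.100 (SE), with an adjusted p of 0.556 by limma.

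Rpl22l1, which can replace Rpl22, measured 9.55 in 4-week smoke, 9.50 in 4-week control, 9.64 in 2-week smoke and 9.45 in 2-week control, and Rpl22 itself lay between 9.16 and 9.24. Rpl7l1, a relative of Rpl7, was at 10.65 in 4-week smoke, 10.55 in 4-week control, 10.38 in 2-week smoke and 10.32 in 2-week control, so that the 4-week pools were the higher ones. Rpl7 itself read 9.47 in 4-week smoke, 9.27 in 4-week control, 9.37 in 2-week smoke and 9.48 in 2-week control, with the 4-week control pool the lowest.

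Of the 3 paralogues with low signal, Rpl10l and Rpl39l are known from testis and Rpl3l from heart and skeletal muscle. Rpl10l had 5.80 in 4-week smoke, 5.28 in 4-week control, 5.27 in 2-week smoke and 5.16 in 2-week control. Its 4-week smoke difference of 0.51 is the second highest of the members, on a signal below the floor. Rpl39l was at 4.66 in 4-week smoke, 4.85 in 4-week control, 5.07 in 2-week smoke and 4.80 in 2-week control, with the smoke pools at either end. Rpl3l stayed between 4.73 and 4.91. Of 4 testis germ cell markers 1 was above the floor, and their summed signal was 278 in 4-week smoke and 255 in 4-week control, and 261 in 2-week smoke and 249 in 2-week control.

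The 4 retrocopies or pseudogenes (Rps3a2, Rps3a3, Rpl6l and Rpl32l) were all higher in smoke at 4 weeks (median 0.14) and all lower at 2 weeks (median -0.15). Over all genes tested, 46.5% were higher at 4 weeks and 48.6% lower at 2 weeks. Rpl6l, named after Rpl6, read 13.29 in 4-week smoke, 12.82 in 4-week control, 12.99 in 2-week smoke and 13.05 in 2-week control, a difference of 0.47 at 4 weeks and -0.07 at 2 weeks. Rpl32l read 13.37 in 4-week smoke, 13.36 in 4-week control, 13.02 in 2-week smoke and 13.31 in 2-week control. Here the 2-week smoke pool alone stood apart, at -0.29 from its control. Rps3a2 differed by 0.14 and -0.13, and Rps3a3 by 0.14 and -0.18, close to the 0.11 and -0.12 of Rps3a1; probes of such near-identical copies can take up each other's RNA, so these are not separate measurements. The 2 genes that encode no ribosomal protein were Rps19bp1, which binds Rps19, and Rps23rg1, a retroposed gene. They differed by -0.04 and 0.22 at 4 weeks and by 0.10 and -0.00 at 2 weeks.

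The origin of the signal bears on the members. Of 43 members with a known chromosome, 6 were represented by a feature of another chromosome (Rpl7a, Rpl12, Rpl27, Rpl31, Rpl35 and Rpl41), whereas 98.8% of all matched features lay on their gene's chromosome. For the 4 of them with a feature at their own locus, that feature gave 0.22, 0.16, 0.13 and 0.23 at 4 weeks for Rpl7a, Rpl27, Rpl35 and Rpl41, all above 0 as in the feature used. With own-locus features 33 of 42 members were higher at 4 weeks, the same number as before.

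Pseudogenes of ribosomal proteins, features marked -ps or -rs, were also high in 4-week smoke. Probes of such copies can take up RNA of the parent genes, so these features are not separate evidence from the members. Of 182 above the floor, 149 were higher in smoke at 4 weeks (median 0.13), against 46.5% of all genes tested. At 2 weeks 125 were lower in smoke (median -0.06), against 48.6%. They were highest in 4-week smoke in 120 cases, against 29.5% of all genes tested. Of the 182, 177 were higher in 4-week than in 2-week smoke, against 50.4%. For smoke, 1 of them was 1.5-fold different at 4 weeks (4.04% of all genes tested) and 1 at 2 weeks (3.04%). Between the control pools 6 were (4.09%), and between the smoke pools 6 (3.15%). By limma 0 passed (1.47%), with 7 at an unadjusted p under 0.05 (11.6%). The 53 features that listed a member among several symbols had medians of 0.06 at 4 weeks and -0.00 at 2 weeks. At 4 weeks 38 of 53 were higher, against 46.5% of all genes tested. For smoke, 0 of the 53 were 1.5-fold different at 4 weeks (4.04% of all genes tested) and 1 at 2 weeks (3.04%). Between the control pools 3 of the 53 were (4.09%).

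Mitochondrial ribosomal proteins, which build a separate ribosome for the genes of mitochondrial DNA, were evenly split at 4 weeks. Of 72 tested, 35 were higher in smoke at 4 weeks (median -0.00), against 46.5% of all genes tested. At 2 weeks 43 were (median 0.04), against 51.3%. Between the control pools 53 of 72 were higher at 4 weeks (median 0.12), against 52.1%. By limma 0 passed (1.47% of all genes tested), and 3 had an unadjusted p under 0.05 (11.6%).

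The other genes with a TOP tract, mostly translation factors, were higher in smoke in 15 of 20 at 4 weeks (median 0.06), against 46.5% of all genes tested. At 2 weeks 11 of 20 were higher (median 0.01), against 51.3%. By limma 0 passed (1.47% of all genes tested), with 1 at an unadjusted p under 0.05 (11.6%). Eef1a1, which brings aminoacyl-tRNA to the ribosome, was at 17.38 in 4-week smoke, 17.34 in 4-week control, 17.39 in 2-week smoke and 17.40 in 2-week control. Eef2, which moves the ribosome along the message, differed by -0.01 at 4 weeks and -0.04 at 2 weeks. Fau, whose product is cleaved to a ubiquitin-like part and the small-subunit protein S30, differed by 0.23 and 0.07.

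Ribosome biogenesis genes, whose products transcribe and process ribosomal RNA and assemble the subunits, were mostly lower in smoke at 4 weeks. Of 60 tested, 43 were lower in smoke at 4 weeks (median -0.06), against 53.5% of all genes. At 2 weeks 25 were lower (median 0.01), against 48.6%. By limma 0 passed (1.47% of all genes tested), and 1 had an unadjusted p under 0.05 (11.6%). Ncl, the nucleolar protein nucleolin, read 12.30 in 4-week smoke, 12.51 in 4-week control, 12.54 in 2-week smoke and 12.67 in 2-week control. Smoke was lower at both durations, by amounts similar to the difference of -0.16 between the control pools.

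Regulators of ribosomal protein synthesis were lower in smoke in 16 of 19 at 4 weeks (median -0.13), against 53.5% of all genes tested. At 2 weeks 8 of 19 were lower (median 0.05), against 48.6%. The 3 higher at 4 weeks included Mnt, with 0.39 at 4 weeks and 0.10 at 2 weeks. The list mixes genes of different roles, so a shared direction is not read as more or less synthesis. By limma 0 passed (1.47% of all genes tested), and 0 had an unadjusted p under 0.05 (11.6%). Myc, which activates ribosome genes, differed by 0.12 at 4 weeks and -0.02 at 2 weeks, with 0.29 between the control pools. Mtor, the kinase that promotes TOP translation, had -0.19 and 0.09. Larp1, which binds TOP messages, had -0.02 and -0.04. Mdm2, the p53 ligase that Rpl11 binds, had -0.13 and -0.10.

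**Figure D4:**
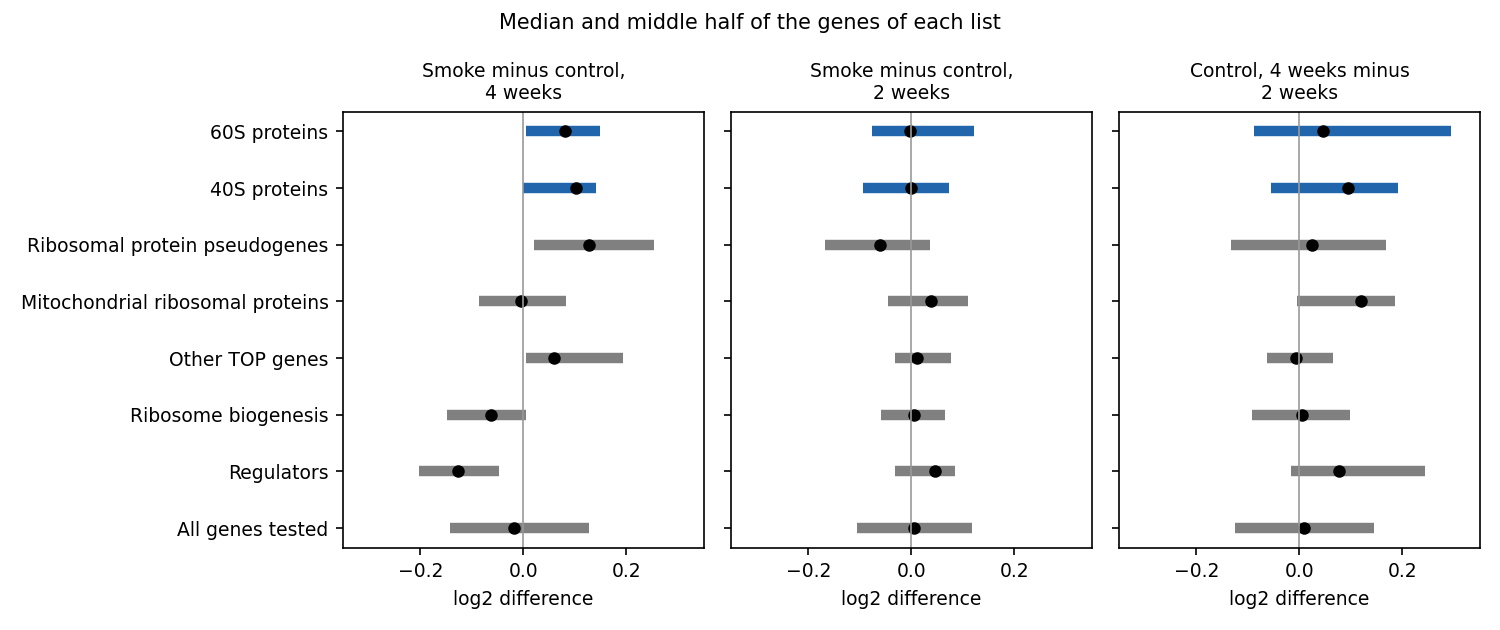
Median (point) and quartiles (bar, from the lower to the upper one) of the log2 differences over the genes of each list (y axis), for smoke minus control at 4 weeks, smoke minus control at 2 weeks, and 4-week minus 2-week control (x axes, left to right). At 4 weeks the 60S and 40S proteins lie at 0.08 and 0.10, and the regulators at -0.13.

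Small nucleolar RNAs, most of them guides for the modification of ribosomal RNA, often lie inside introns of ribosomal protein genes. RefSeq places 17 such genes within members, and 9 had a feature. Of these 9, 4 were higher in smoke at 4 weeks (46.5% of all genes tested) and 3 at 2 weeks (51.3%). At 1.5-fold, 0 differed at 4 weeks (4.04%), 1 at 2 weeks (3.04%) and 2 between the control pools (4.09%). Snord73a, inside Rps3a1, was the one at 2 weeks, with 8.76 in 2-week smoke and 9.39 in 2-week control, a difference of -0.63 where Rps3a1 had -0.12. The control pools differed more than this, by -0.84. Inside Rpl4, whose own differences were 0.00 and -0.06, Snord16a had 0.34 and 0.19 while Gm23344 had -0.24 and -0.27, so guides of one host ran in opposite directions.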

How the data were processed

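Lung RNA pools were measured on 1 array each, 4 arrays in all, grouped by sample title. The authors deposited linear intensities. Per the submitters' processing notes, these came from RMA, run in Expression Console 1.4.1 of Affymetrix. Neither the genome build nor the base of the linear values is given in the sources used here; with base e, all log2 differences would be multiplied by 0.693. The median signal was 58.8 to 61.7. The number of arrays limits the precision.

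Log2 was taken (a log2 table had been foreseen). Of 65956 features, 30604 had 1 symbol in the platform annotation, 2146 several and 33206 were not listed; 22815 matched RefSeq (GRCm38.p6) by Entrez ID, which updated 827 symbols. Columns of other samples numbered 0. Of the genes tested, 303 shared all values with another, none of them a member. Differences between pools were counted at 1.5-fold. limma 3.58.1 (R 4.3.3) fitted smoke and duration over 18086 genes, with 1 residual degree of freedom and 5.38 prior degrees of freedom. On simulated data, 20 runs with 200 changed genes of 18086, 10.3% of its calls were false.

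Members named with values were those with the 6 highest and 6 lowest effects, the 3 highest and 3 lowest mean signals, Rplp0, Rpl11, and the paralogues and retrocopies with their parents. For the lists, genes were named from those that pass limma, though not every one that passes is named. Myc, Mtor, Larp1, Eef1a1, Eef2, Rack1 and Fau were to be named where tested. Others were named after seeing their values. The members and lists were chosen with earlier results of these data known. The snoRNA genes were placed by position alone, since the table used gives no strand for them. Alternatives were the scaling, the filter, the feature per gene, the members counted, the model and the arrays.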

Additional observations from a re-analysis of the deposited data

Results flagged for a closer look

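One feature outside the comparisons, listed under several symbols of which 1 is a ribosomal protein gene, had a difference of 0.61 (1.52-fold) between 2-week smoke and 2-week control, while 0 of the 45 genes with their own feature reached 1.5-fold. It read 13.39 in 4-week smoke, 13.17 in 4-week control, 13.03 in 2-week smoke and 12.42 in 2-week control. At 4 weeks its smoke difference was 0.22. The 2 control pools differed by 0.75 (1.68-fold), more than either smoke difference, and the 2-week control pool was the one apart from the others.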

How the results depend on the processing

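The number of arrays, the pooling of mice, features of other loci and the unknown log base limit the values. With a fold limit of 1.2 in place of 1.5, among the 42 members above the floor 5 differed at 4 weeks, 3 at 2 weeks and 7 between the control pools (of all genes 23.5%, 17.1% and 23.3%). The median effect by limma was 0.04, and leaving out each array in turn, which also took the duration term out of the model, gave -0.035 to 0.096, the lowest without the pool of 4 weeks of smoke and the highest without that of 2 weeks of smoke; members passing numbered 0 to 0. Such a fit differs in both array and model, and their parts were not separated. Genes passing were 265 in all, 8 with arrays centred on their medians, 24 with cyclic loess, 224 without the filter, 882 of 12583 when protein-coding genes alone were fitted, and 0 with smoke alone in the model; leaving out an array and the duration term gave 0 to 34. Members passing were 0 in each of these, with 0 to 2 at an unadjusted p under 0.05. At 4 weeks, the members' median less that of all genes was between 0.08 and 0.13 over the settings tried. Centring of the array medians moves both medians alike and could not alter this difference, and base e only rescales it. The own-chromosome features and the 33 standard proteins alone were settings chosen after seeing the data. Of the 26 members named by rule, the 3 below the floor (Rpl10l, Rpl39l and Rpl3l) were not recomputed. For the others, 307 recomputed effects gave 29 changes of sign. Many settings leave a gene's effect as it was or only rescale it, and those could not change its sign. Since no member passed in any setting, a change of sign in a called value could not occur. No paired analysis was possible because each group had 1 array and the labels carry no replicate numbers; the duration term, which sets each smoke pool beside the control of its duration, was the closest form.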
